A study of Mus musculus with 20 samples.

Results

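The genes described here are 41 mouse genes that cells use to enter, carry out and leave mitosis, and they were followed over 9 populations of blood-forming and immune cells on 20 arrays. They were taken from a fixed list of gene symbols. Each gene was read from 1 probe set, the set of short probes annotated to that symbol alone, and where a gene had several the probe set with the highest mean over the 20 arrays was used. The 41 genes are among 18194 genes that could be named in this way, and all 41 passed the filter on dim signal that left 13479 genes for testing.

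Cells were sorted from mouse bone marrow and their RNA was amplified, labelled with biotin and hybridised to Affymetrix arrays. The stated goal of the series was to find genes in natural killer (NK) cells that depend on the transcription factor Ets1. Wild-type C57bl/6 mice gave 7 of the populations. CLP, the common progenitors of lymphocytes, and GMP, the progenitors of granulocytes and monocytes, were measured on 3 arrays each. HSC (hematopoietic stem cells), MPP (multipotent progenitors), LMPP (MPP primed toward the lymphoid lineage), pro-B cells and CD4 T cells were measured on 2 arrays each. Mature NK cells came from 129 mice that lacked Rag2, a gene needed to assemble antigen receptors, and that were either Rag2-- Ets1++ (Ets1 present, n = 2) or Rag2-- Ets1-- (Ets1-deficient, n = 2). All mice were 8 to 14 weeks old. Both NK groups carry the Rag2 deficiency and the 129 background, so that in a comparison of NK cells with another population cell type, strain and Rag2 cannot be told apart. Whether the replicates of a group are different animals is not stated in the labels. The p-values then reflect only the spread among these samples, and that spread may be technical.

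Most mitotic genes are transcribed late in the cell cycle, in G2 and early mitosis, and their messages are removed as cells leave division. Resting cells therefore hold little of them, and the same genes serve as markers of dividing cells in bone marrow, where stem cells divide rarely and their progeny divide often. In resting cells many of these genes are held down by a repressor assembly, DREAM, which binds a promoter element called the CHR (cell cycle genes homology region), and CCAAT boxes nearby are bound by the activator NF-Y.

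The promoters of 35 of the 41 genes were found in a RefSeq table of the assembly GRCm38.p6, and they are shown because these genes rose and fell together over the populations. The 6 others were Aurkb, Ccna2, Foxm1, Kif20a, Pbk and Tpx2. Each window runs from 250 bases before the first transcription start listed for the gene to 30 bases from that start on. The windows were searched on both strands for the CHR (TTTGAA or TTCGAA), the CCAAT box (CCAAT) and an E2F-like site (TTCCCGC), none of which is contained in another, although matches may share end bases. A CHR was present in 23 of the 35 windows (65.7%), against 18.6% of all 27025 promoter windows of the same length and 13.3% of the 10845 windows of genes tested here. At least 1 CCAAT box was present in 25 windows (71.4%, against 36.6% of all), and 17 windows (48.6%) held 2 or more, against 11.6% of all. Both motifs stood together in 20 windows (57.1%), against 7.07% of all windows. A CHR that began between 50 bases before the start and 30 bases after it was found in 19 windows (54.3%) and in 4.33% of all windows. The E2F-like letters were found in 0 of the 35 windows and in 4.33% of all, which says only that these letters are not in these windows.

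Of the 8 windows printed here, 6 belong to the genes with the widest range of level over the 9 groups among those with a listed promoter (Cep55, Kif2c, Hmmr, Cenpf, Ect2 and Nuf2). Those of Ccnb2 and Cdk1, which encode cyclin B2 and its kinase partner, were added after the values had been seen. All are written 5′ to 3′ on the strand of the gene, in lower case, with CHR and CCAAT matches on either strand in capitals. The windows lie at chr9:70421525-70421804 for Ccnb2, chr10:69352883-69353162 for Cdk1, chr11:40733408-40733687 for Hmmr, chr1:189688057-189688336 for Cenpf, chr3:27153849-27154128 for Ect2, chr4:117178743-117179022 for Kif2c and chr1:169531435-169531714 for Nuf2, all on the minus strand, and at chr19:38054734-38055013 for Cep55 on the plus strand. The listed start coincides with the outer end of the annotated gene in Ccnb2, Cdk1 and Nuf2. It lies 14 bases inside the gene in Cep55, 21 in Cenpf, 27 in Hmmr, 375 in Ect2 and 3852 in Kif2c, so that the Kif2c window is taken from an inner start.
Ccnb2: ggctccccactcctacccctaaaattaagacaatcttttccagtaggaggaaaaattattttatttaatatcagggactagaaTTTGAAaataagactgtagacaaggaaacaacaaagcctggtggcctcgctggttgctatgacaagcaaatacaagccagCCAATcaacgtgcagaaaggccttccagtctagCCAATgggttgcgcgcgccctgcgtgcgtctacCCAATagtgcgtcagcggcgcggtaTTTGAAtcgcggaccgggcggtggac
Cdk1: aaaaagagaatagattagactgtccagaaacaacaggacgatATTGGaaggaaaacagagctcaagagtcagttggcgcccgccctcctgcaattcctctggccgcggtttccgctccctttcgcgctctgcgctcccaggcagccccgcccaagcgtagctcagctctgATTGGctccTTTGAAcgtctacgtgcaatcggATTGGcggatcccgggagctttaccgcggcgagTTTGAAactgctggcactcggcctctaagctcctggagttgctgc
Hmmr: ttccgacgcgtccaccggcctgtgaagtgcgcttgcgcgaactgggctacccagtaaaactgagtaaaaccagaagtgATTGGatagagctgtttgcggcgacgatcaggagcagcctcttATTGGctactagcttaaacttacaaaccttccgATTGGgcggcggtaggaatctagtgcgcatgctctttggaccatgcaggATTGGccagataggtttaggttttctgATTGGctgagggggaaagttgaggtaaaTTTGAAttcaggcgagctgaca
Cenpf: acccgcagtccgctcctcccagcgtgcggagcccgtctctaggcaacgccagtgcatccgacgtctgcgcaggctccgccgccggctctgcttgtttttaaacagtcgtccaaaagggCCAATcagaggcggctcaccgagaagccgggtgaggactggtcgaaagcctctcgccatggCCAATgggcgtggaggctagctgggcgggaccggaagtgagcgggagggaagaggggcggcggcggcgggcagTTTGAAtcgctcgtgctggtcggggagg
Ect2: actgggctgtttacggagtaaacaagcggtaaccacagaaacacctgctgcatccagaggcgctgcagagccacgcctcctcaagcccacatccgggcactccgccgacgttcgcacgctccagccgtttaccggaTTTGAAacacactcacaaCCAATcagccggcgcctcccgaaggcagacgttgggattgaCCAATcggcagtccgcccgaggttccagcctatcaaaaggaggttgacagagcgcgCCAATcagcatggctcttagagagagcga
Cep55: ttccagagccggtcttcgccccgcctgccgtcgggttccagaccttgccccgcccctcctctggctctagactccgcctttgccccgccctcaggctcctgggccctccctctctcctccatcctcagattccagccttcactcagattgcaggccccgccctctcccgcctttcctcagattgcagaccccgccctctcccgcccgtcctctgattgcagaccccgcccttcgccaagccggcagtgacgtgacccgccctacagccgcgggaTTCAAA
Kif2c: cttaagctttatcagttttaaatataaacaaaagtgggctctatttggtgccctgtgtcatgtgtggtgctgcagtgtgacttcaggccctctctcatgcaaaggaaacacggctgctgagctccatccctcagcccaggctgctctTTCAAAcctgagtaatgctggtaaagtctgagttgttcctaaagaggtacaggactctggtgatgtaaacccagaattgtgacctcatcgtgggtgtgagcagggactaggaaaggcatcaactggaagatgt
Nuf2: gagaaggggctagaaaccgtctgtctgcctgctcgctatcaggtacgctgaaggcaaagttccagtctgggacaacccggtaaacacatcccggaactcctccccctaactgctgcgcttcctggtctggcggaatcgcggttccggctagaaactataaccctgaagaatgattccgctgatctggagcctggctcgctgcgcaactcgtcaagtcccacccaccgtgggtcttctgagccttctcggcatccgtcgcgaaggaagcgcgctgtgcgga
The Ccnb2 window holds 3 CCAAT boxes and 2 CHR matches, the second of them just past the start. Cdk1 also has 3 CCAAT boxes and 2 CHR matches, and Hmmr has 5 CCAAT boxes before 1 CHR. Cep55 and Kif2c each hold 1 CHR and 0 CCAAT boxes, and the Nuf2 window holds neither motif. Over the groups the mean level of Nuf2 spanned 5.24 log2 units, that of Hmmr 5.39 and that of Ccnb2 4.43.

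**Figure D1:**
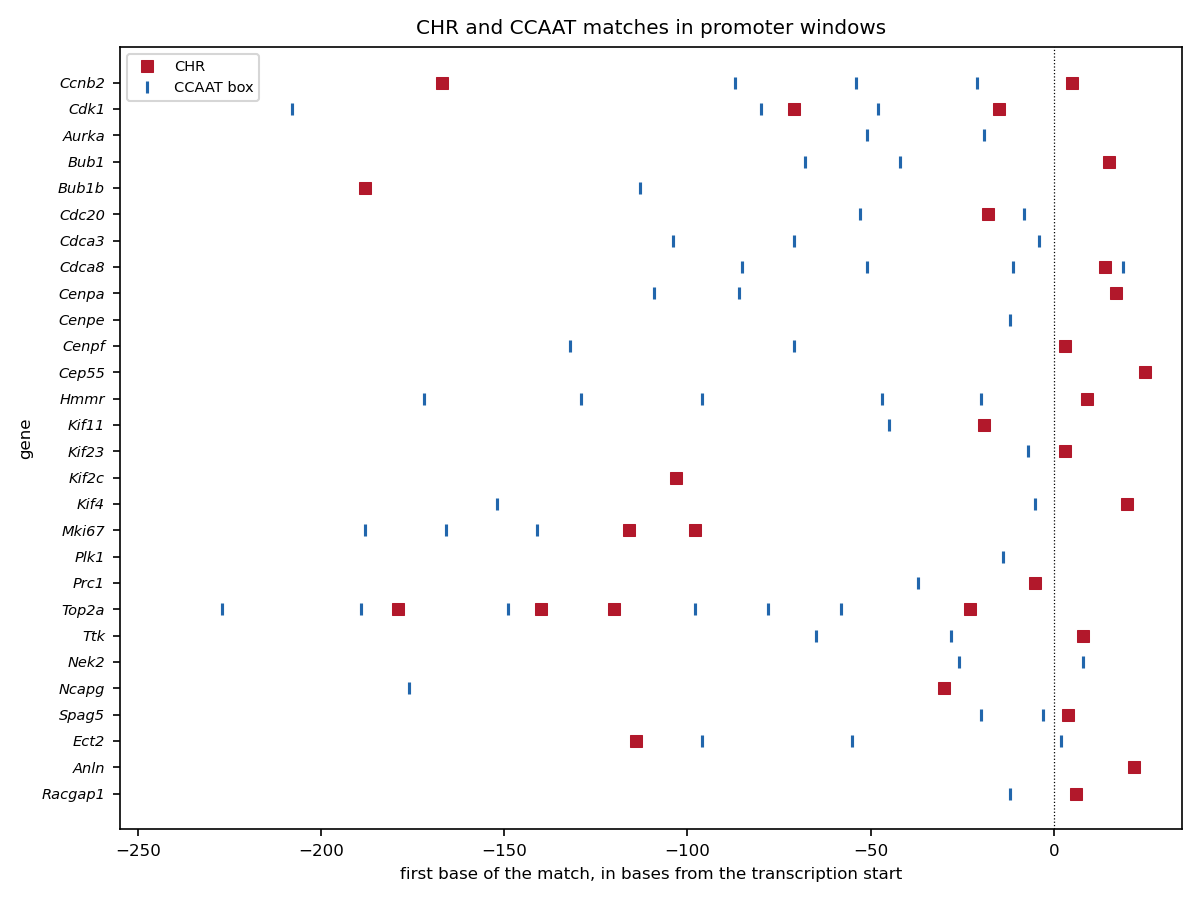
CHR (squares) and CCAAT matches (bars) in the promoter windows of the 28 genes that hold at least 1 of them, by the distance in bases of the first base of the match from the transcription start (dotted line). Most CHR matches lie within 50 bases of the start, with the CCAAT boxes mostly before them, and 7 further genes with a listed promoter hold neither motif and are not drawn.

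Levels are log2 intensities, and array medians over all probe sets lay between 3.78 and 4.04. Marker genes of each sorted population were at least 2 log2 units above the array median in that population: 6 of 6 measured HSC markers in HSC, 3 of 3 multipotent and lymphoid-primed markers in MPP and LMPP, 5 of 5 in CLP and in GMP, 5 of 6 in pro-B cells, 7 of 7 in CD4 T cells and 6 of 6 in both NK groups. Some lists passed the same cut elsewhere as well. All 5 GMP markers did so in NK cells with Ets1 present, and 4 of 5 in MPP and LMPP. All 5 CLP markers passed in pro-B cells, and all 3 multipotent and lymphoid-primed markers in HSC, CLP and GMP. Of 6 pro-B markers, 4 to 5 passed in CLP. Of 6 HSC markers, 5 passed in MPP and 4 in LMPP. These counts alone therefore do not part those populations. Ets1 itself read 11.34 and 11.45 with Ets1 present and 11.28 and 10.85 in Ets1-deficient NK cells. Where its probes lie relative to the deleted part was not analysed here, so this does not check the genotype labels. Some arrays stood apart. HSC array 2 was above HSC array 1 for 41 of 41 mitotic genes, by a median of 1.89 log2 units, against a median of 0.08 over all tested genes. The difference exceeded 1 log2 unit for 34 of the 41, against 8.63% of all tested genes. Over the mitotic genes the root-mean-square SD was 1.38 in HSC and 0.10 to 0.65 in the other groups. The counts and medians of the 41 genes in comparisons with HSC are therefore given with each HSC array left out. Results on other gene lists are not given in this way. Some erythroid markers moved with this difference and others did not. The summed intensity of 5 such markers was 268 on HSC array 1 and 1671 on HSC array 2, where Klf1 read 9.47, Ermap 9.68 and Epor 7.01. The globin gene Hba-a1 read 2.68 and Alas2 2.63 on that array, both under the array median. Megakaryocyte markers, 5 of 5 measured, summed to 2330 and 2057 in HSC and 965 and 1993 in MPP. The erythroid sum was 118 and 253 in MPP, 227 to 694 in CD4 T cells and 61 to 139 in the other populations. The part of these markers in the results on HSC was not tested.

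The 3′ signal of actin exceeded its 5′ signal by 5.20 and 5.27 log2 units on CLP arrays 1 and 3 and by 3.26 on CLP array 2. It did so by 6.44 to 6.68 in GMP, 0.97 to 1.23 in CD4 T cells and 1.88 to 4.07 in the other populations. CLP array 2 was above the mean of arrays 1 and 3 for 33 of 41 mitotic genes, by a median of 0.42 log2 units. Neutrophil markers, 6 of 6 measured, summed to 10063 and 10389 with Ets1 present, 5014 and 2841 in Ets1-deficient NK cells, 2193 to 2583 in GMP and at most 225 elsewhere. Of the GMP markers, 5 of 6 were measured, and they summed to 660 and 678 with Ets1 present and to 194 and 131 in Ets1-deficient NK cells. In a bulk sample, fewer dividing cells and less RNA in each of them cannot be told apart.

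The 41 genes were highest in pro-B cells and lowest in CD4 T cells. The median of the 41 group means was 4.59 in CD4 T cells, 5.47 in HSC, 6.25 in CLP, 8.19 in MPP, 8.22 in GMP, 8.56 in LMPP, 8.65 in Ets1-deficient NK cells, 8.76 in NK cells with Ets1 present and 9.31 in pro-B cells. Over all tested genes the same median stayed between 5.69 and 6.21. Pro-B cells held the highest mean for 34 of 41 mitotic genes, against 8.31% of tested genes. CD4 T cells held the lowest mean for 36 of 41, against 15.7%. On single arrays the median over the 41 genes was 4.53 and 6.39 in HSC, 5.84, 6.54 and 5.93 in CLP, and 4.79 and 4.53 in CD4 T cells. It was 8.38 and 8.02 in MPP, 8.59 and 8.52 in LMPP, 8.35, 8.21 and 8.07 in GMP, and 9.20 and 9.51 in pro-B cells. In NK cells it was 8.79 and 8.72 with Ets1 present and 8.88 and 8.61 without. Neighbours in this order overlapped for HSC and CD4 T cells, HSC and CLP, MPP and GMP, and both NK groups, while the pro-B arrays stood above all others. The difference between the highest and lowest group mean had a median of 4.75 log2 units over the 41 genes, against 1.71 over all tested genes.

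**Figure D2:**
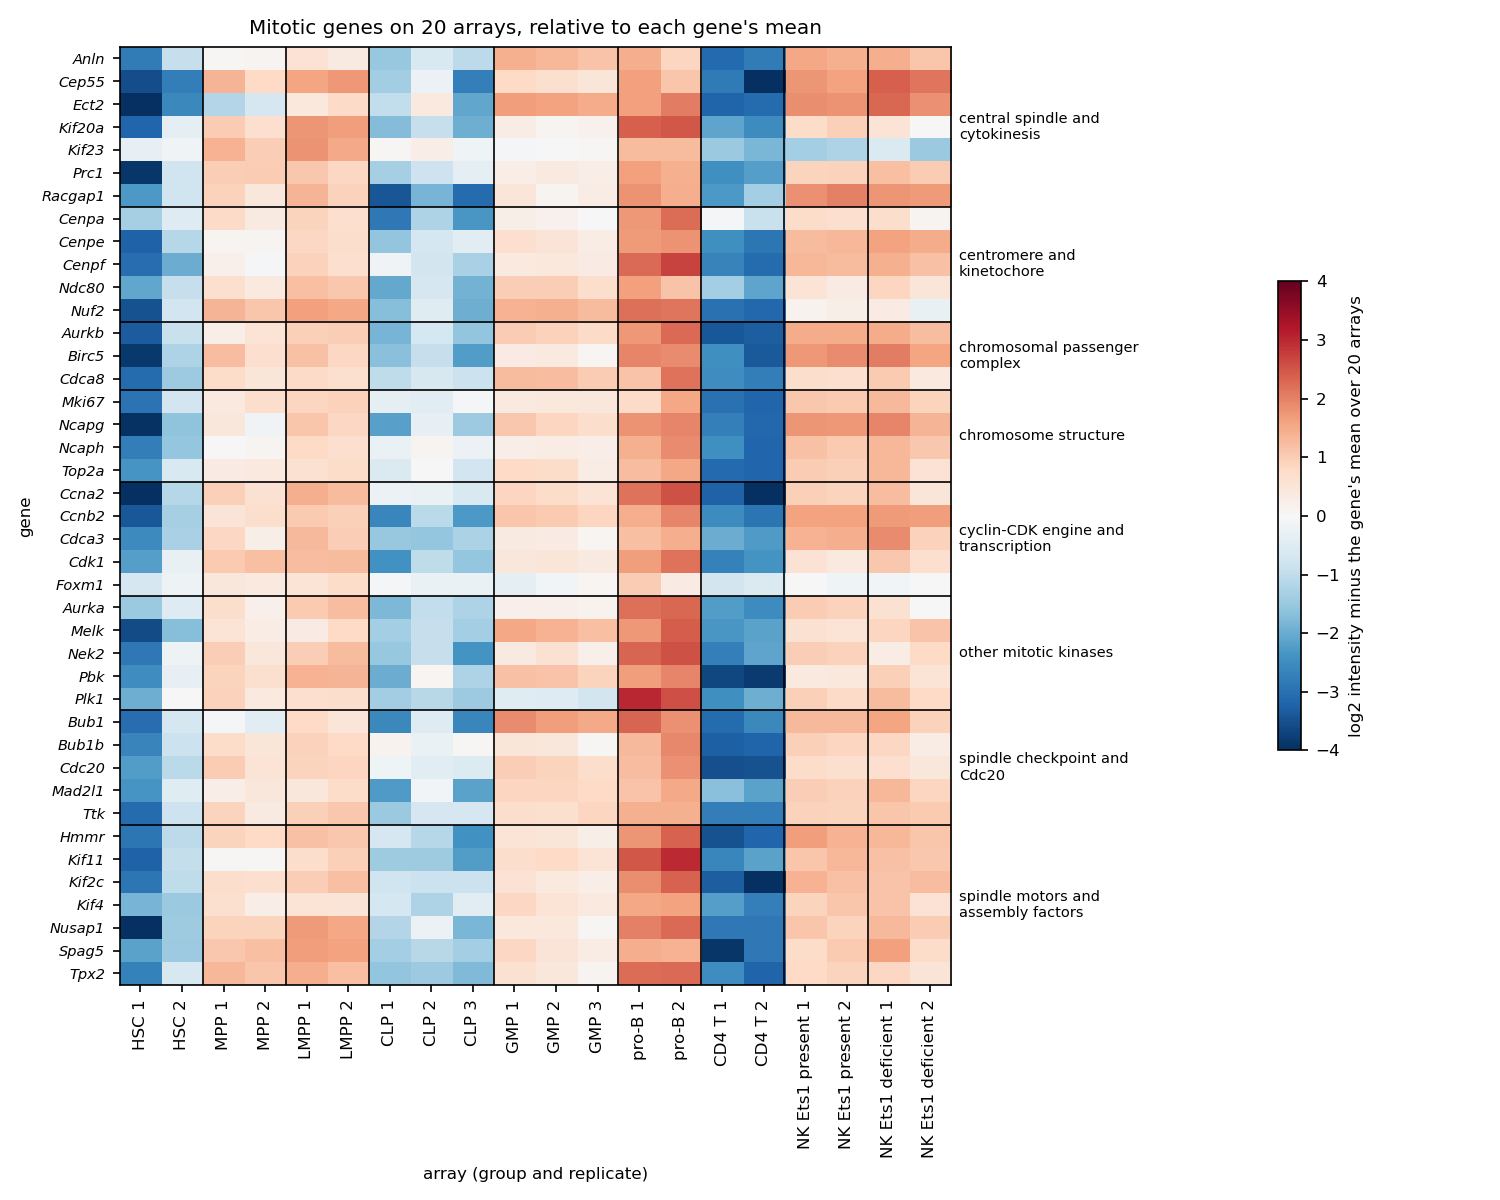
Log2 intensity of the 41 genes (grouped by role) on the 20 arrays, each minus the gene's mean over the arrays; colours end at 4 log2 units in either direction, and values past that share the end colour. HSC array 1 and both CD4 T arrays are lowest for most genes, the pro-B arrays are highest, and the NK columns of Kif23 are low where its neighbours are high.

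The engine of mitotic entry is Cdk1, a kinase switched on by cyclins A2 and B2, with Cdca3, an adaptor for protein destruction at mitotic entry, and Foxm1, a transcription factor that activates G2-M genes. Cdk1 read 6.07 and 7.97 in HSC, 9.30 and 9.47 in MPP, 9.51 and 9.54 in LMPP, 5.84, 7.26 and 6.71 in CLP, and 8.72, 8.75 and 8.62 in GMP. It read 9.93 and 10.44 in pro-B cells, 5.57 and 5.88 in CD4 T cells, 8.83 and 8.66 in NK cells with Ets1 present and 9.34 and 8.93 in Ets1-deficient NK cells. The pro-B arrays were above all others, while the HSC, CLP and CD4 T arrays overlapped at the bottom. Ccna2, cyclin A2, which acts in S phase and at mitotic entry, read 3.74 and 7.38 in HSC, 9.49 and 9.12 in MPP, 9.97 and 9.79 in LMPP, 8.29, 8.25 and 7.91 in CLP, and 9.39, 9.27 and 9.08 in GMP. In pro-B cells it read 10.69 and 11.08, in CD4 T cells 5.30 and 4.05, and in NK cells with Ets1 present 9.47 and 9.42. Its mean in Ets1-deficient NK cells was 9.37 ± 0.53 (SD, n = 2). Its range of group means, 6.21 log2 units, was the widest of the 41 genes. HSC array 1 was the lowest of the 20 arrays for Ccna2, and HSC array 2 lay between CD4 T cells and CLP.

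Ccnb2, cyclin B2, read 4.99 and 7.03 in HSC, 8.88 and 9.07 in MPP, 9.42 and 9.31 in LMPP, 5.76, 7.29 and 6.06 in CLP, and 9.49, 9.41 and 9.22 in GMP. It read 9.83 and 10.33 in pro-B cells, 5.86 and 5.44 in CD4 T cells, 9.99 and 9.98 in NK cells with Ets1 present and 10.06 and 10.03 in Ets1-deficient NK cells. All 4 NK arrays lay within the pro-B range, and the CLP arrays overlapped those of HSC and CD4 T cells. Foxm1 moved least of the 41 genes, with a range of group means of 1.32 log2 units. Its arrays read 5.43 and 5.92 in HSC, 6.57 and 6.50 in MPP, 6.66 and 6.84 in LMPP, 6.05, 5.83 and 5.84 in CLP, 5.71, 6.01 and 6.18 in GMP, 7.11 and 6.45 in pro-B cells, and 5.37 and 5.54 in CD4 T cells. In NK cells it read 6.14 and 5.93 with Ets1 present and 6.01 and 6.09 without. CLP, GMP and NK arrays of Foxm1 overlapped, and so did those of pro-B cells, MPP and LMPP.

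Among the other mitotic kinases, Plk1 drives centrosome maturation and spindle assembly, Aurka works at the spindle poles, and Nek2 helps the centrosomes part. Plk1 read 4.43 and 6.39 in HSC, 7.30 and 6.79 in MPP, 7.05 and 7.09 in LMPP, 4.99, 5.29 and 4.95 in CLP, and 5.90, 5.86 and 5.67 in GMP. It read 9.40 and 8.98 in pro-B cells, 3.95 and 4.43 in CD4 T cells, 7.33 and 7.16 in NK cells with Ets1 present and 7.65 and 7.18 in Ets1-deficient NK cells. The GMP arrays of Plk1 lay below all MPP, LMPP and NK arrays, and the pro-B arrays lay more than 1 log2 unit above every other array. Over the 5 kinases of this group, which also holds Melk and Pbk, the median of the group means was 4.46 in CD4 T cells, 5.35 in CLP and 9.19 in pro-B cells.

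The chromosomal passenger complex corrects faulty attachments of chromosomes and later steers cytokinesis, and Aurkb, its kinase, with Birc5 (survivin) and Cdca8 (borealin), stood for it here. Aurkb read 3.76 and 6.20 in HSC, 7.36 and 7.64 in MPP, 8.05 and 8.08 in LMPP, 5.23, 6.39 and 5.51 in CLP, and 8.13, 8.03 and 7.87 in GMP. It read 8.83 and 9.36 in pro-B cells, 3.71 and 3.79 in CD4 T cells, 8.58 and 8.60 in NK cells with Ets1 present and 8.57 and 8.33 in Ets1-deficient NK cells. For Aurkb, HSC array 1 lay between the CD4 T arrays and HSC array 2 lay within CLP. Birc5 read 3.27 and 5.91 in HSC, 8.38 and 7.83 in MPP, 8.32 and 7.97 in LMPP, 5.47, 6.21 and 4.90 in CLP, and 7.48, 7.52 and 7.21 in GMP. It read 9.10 and 9.02 in pro-B cells, 4.70 and 3.77 in CD4 T cells, 8.89 and 9.03 in NK cells with Ets1 present and 9.18 and 8.72 in Ets1-deficient NK cells. The NK and pro-B arrays of Birc5 overlapped, and the GMP arrays lay below all MPP and LMPP arrays.

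Chromosome structure genes were Mki67, whose product Ki-67 coats mitotic chromosomes, the topoisomerase Top2a and the condensin subunits Ncapg and Ncaph. Mki67 read 8.01 and 10.20 in HSC, 11.38 and 11.67 in MPP, 11.84 and 11.91 in LMPP, 10.60, 10.55 and 10.94 in CLP, and 11.37, 11.40 and 11.43 in GMP. It read 11.73 and 12.51 in pro-B cells, 8.00 and 7.80 in CD4 T cells, 12.07 and 12.01 in NK cells with Ets1 present and 12.26 and 11.87 in Ets1-deficient NK cells. The NK arrays of Mki67 lay within the pro-B range, and HSC array 1 lay at the level of CD4 T array 1. Top2a, which untangles sister chromatids, read 7.73 and 9.48 in HSC, 10.43 and 10.49 in MPP, 10.71 and 10.82 in LMPP, 9.50, 10.09 and 9.32 in CLP, and 10.87, 10.83 and 10.38 in GMP. It read 11.32 and 11.64 in pro-B cells, 6.97 and 6.93 in CD4 T cells, 11.10 and 11.05 in NK cells with Ets1 present and 11.41 and 10.66 in Ets1-deficient NK cells. CD4 T cells were lowest for Top2a, with HSC array 2 inside the CLP range.

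**Figure D3:**
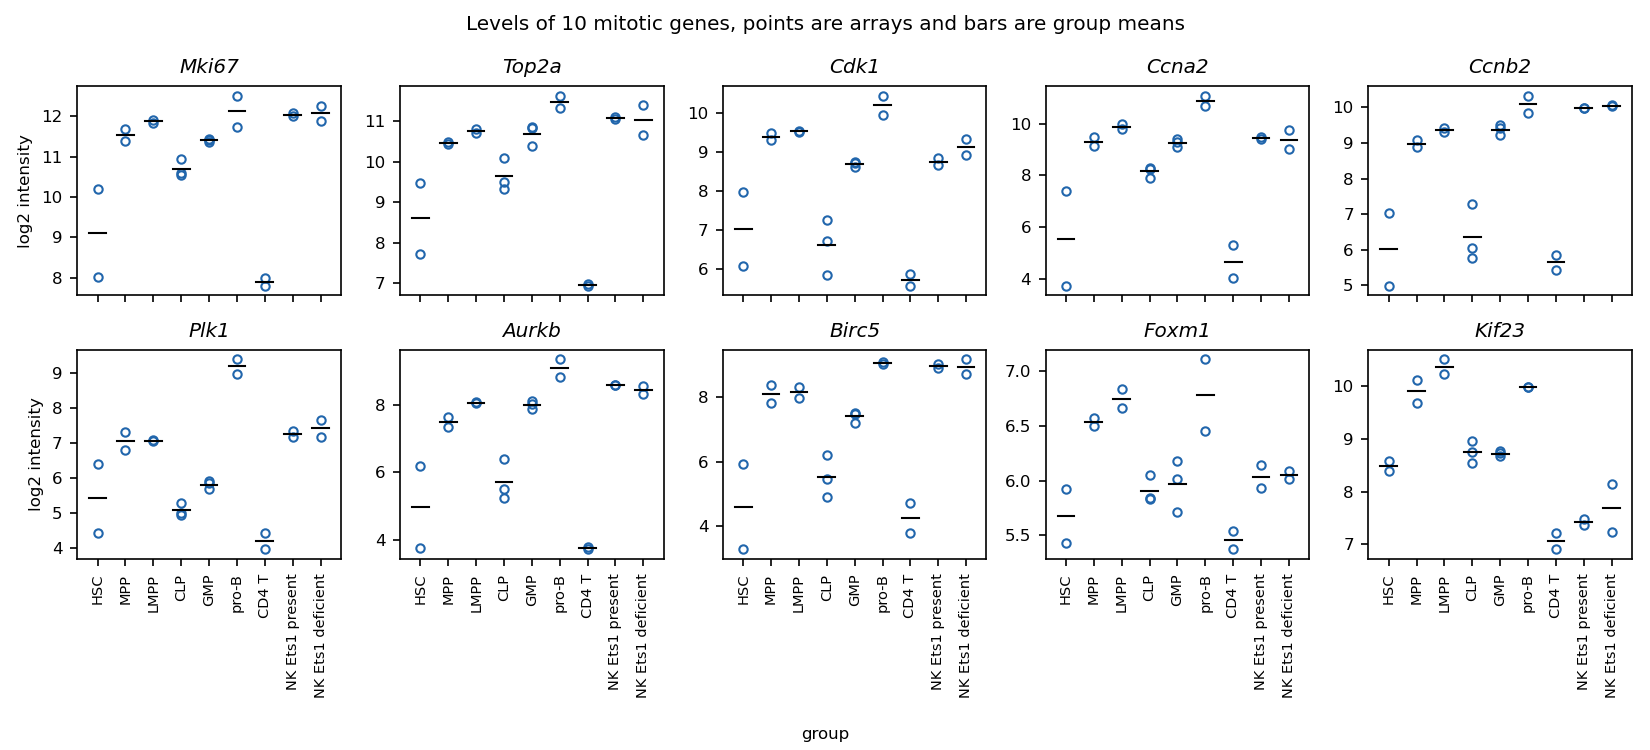
Log2 intensity (vertical axes, each with its own range) of 10 mitotic genes in the 9 groups (horizontal axes), with a circle for each array and a bar for each group mean. The HSC circles lie far apart for all genes but Foxm1 and Kif23, and Kif23 is the panel in which the NK groups are low and LMPP is highest.

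The remaining genes build and read the spindle. Bub1, Bub1b, Ttk and Mad2l1 form the spindle checkpoint, which holds back Cdc20, the activator of the anaphase-promoting complex, and the median of these 5 group means ran from 5.83 in CD4 T cells and 7.32 in HSC to 10.57 in pro-B cells. Cenpa, a histone of centromeres, and Cenpe, Cenpf, Ndc80 and Nuf2, which link it to microtubules, ran from 4.59 in CD4 T cells to 9.13 in pro-B cells. The motors Kif11, Kif2c and Kif4 and the assembly factors Tpx2, Nusap1, Spag5 and Hmmr ran from 4.34 in CD4 T cells to 9.43 in pro-B cells. The 7 genes of the central spindle and cytokinesis (Kif20a, Kif23, Prc1, Anln, Ect2, Racgap1 and Cep55) ran from 4.36 to 8.95 in the same populations. Several of this last group departed from the common order. Anln and Racgap1 were highest in NK cells with Ets1 present (8.79 and 8.84), and Cep55 and Ect2 in Ets1-deficient NK cells (9.83 and 9.25). Racgap1 was lowest in CLP (4.13). A second probe set of Racgap1 was also highest in NK cells with Ets1 present (9.07). It was lowest in CD4 T cells (4.55), with 4.74 in CLP.

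Most of the 41 genes followed a single pattern over the arrays. The correlation of a gene with the median of the other 40 had a median of 0.947 and was above 0.9 for 35 genes, as a description over 20 arrays that share 9 groups and 1 normalization. Kif23, a motor of the centralspindlin complex, was lowest at 0.418, followed by Foxm1 at 0.726 and Cenpa at 0.771. Kif23 read 8.39 and 8.58 in HSC, 10.12 and 9.69 in MPP, 10.52 and 10.23 in LMPP, 8.76, 8.97 and 8.55 in CLP, and 8.67, 8.73 and 8.77 in GMP. It read 9.99 on both pro-B arrays, 7.22 and 6.90 in CD4 T cells, 7.37 and 7.47 in NK cells with Ets1 present and 8.14 and 7.23 in Ets1-deficient NK cells. All NK arrays of Kif23 were thus below all HSC arrays, whereas for the 40 others all NK arrays were above all HSC arrays. Racgap1, the partner of Kif23 in that complex, read 8.76 and 8.93 with Ets1 present and 8.68 and 8.61 without, against 4.63 and 6.12 in HSC. A second probe set of Kif23 was dim, with group means of 2.50 to 4.46, and was highest in pro-B cells. Cenpa differed from the others through CD4 T cells, which read 8.18 and 7.38, above all CLP arrays (5.41, 7.02 and 5.93).

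**Figure D4:**
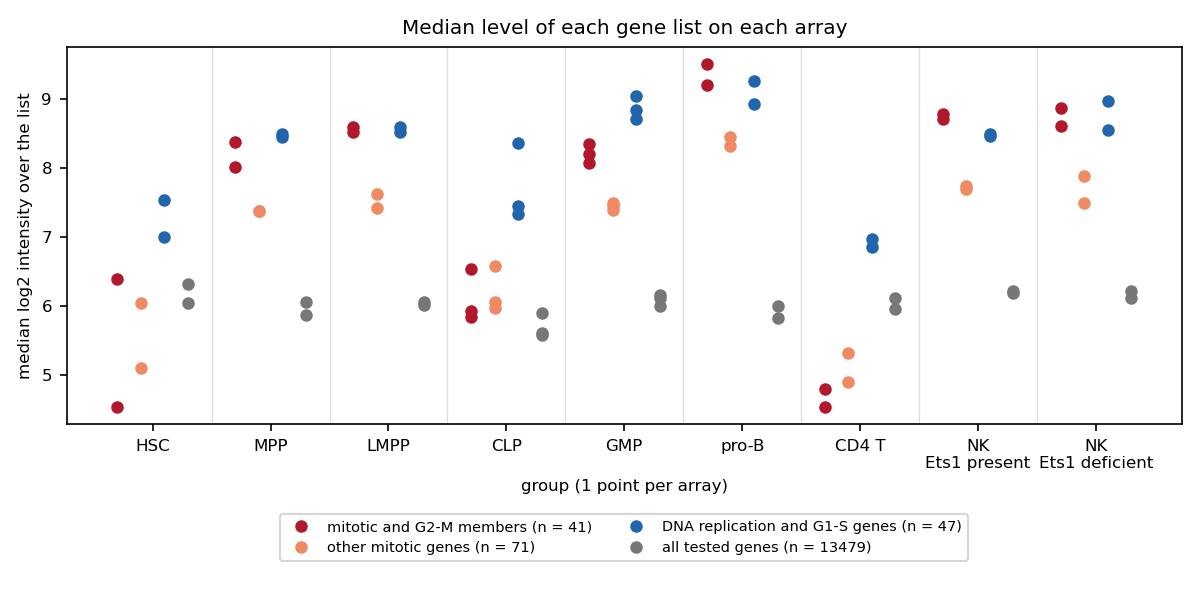
Median log2 intensity (vertical axis) on each array of the 41 mitotic genes, 71 other mitotic genes, 47 DNA replication and G1-S genes and all 13479 tested genes, by group (horizontal axis). The mitotic median spans 4.53 to 9.51 and parts the HSC arrays, while the median of all tested genes stays nearly level.

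Group means were compared with limma in 1 model over the 20 arrays, and a gene was called at a Benjamini-Hochberg adjusted p below 0.05 over all 13479 genes. Differences are in log2 units with the standard error (SE) of the model, which uses 1 pooled error per gene for all groups. For the 41 genes that error takes in the wide spread of HSC (root-mean-square SD 1.38, against 0.46 over all tested genes). In comparisons without HSC, the share of the 41 genes called is therefore not like for like with that of all tested genes. At least 1 array lay at or below the highest array median, 4.04, for 14 of the 41 genes in HSC, 13 in CD4 T cells, 1 in CLP (Racgap1) and 0 in the 6 other groups. No fold is given against such a level. Of the 9 comparisons, those that name the same population share its arrays.

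Mitotic genes rose from HSC to MPP. Of the 41 genes 38 were higher in MPP and 0 lower, where 1.94% of all tested genes were called higher and 3.99% lower. The median difference was 2.42, from 0.86 to 4.23, against -0.14 over all tested genes. Cep55, which recruits the machinery that cuts daughter cells apart, rose by 4.23 ± 0.58 (adjusted p = 0.000191). Ccna2 rose by 3.74 ± 0.69, Nusap1, a microtubule bundling protein, by 3.65 ± 0.57, Birc5 by 3.51 ± 0.57 and Nuf2 by 3.35 ± 0.57. Not called were Foxm1 (0.86 ± 0.28, adjusted p = 0.0741), Bub1 (1.63 ± 0.62, adjusted p = 0.144) and Mad2l1 (1.78, adjusted p = 0.0737). MPP arrays did not overlap those of HSC for 41 of 41 genes, against 16.2% of all tested genes. The size rested on the HSC array: without HSC array 1 the median was 1.48 and 22 genes were called, and without HSC array 2 it was 3.28 and 40 were called. Without MPP array 1 there were 22 calls, and 7 in a fit on the HSC and MPP arrays alone. In that small fit Ccna2, Nusap1, Birc5 and Nuf2 were not called (adjusted p from 0.0638 to 0.108). Averaging over a gene's probe sets gave 2.22 for Cep55 and 2.05 for Nusap1, both still called. Without HSC array 1 Ccna2 was 1.92, Nusap1 2.29, Birc5 2.20 and Nuf2 1.99, all still called.

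Of 71 other mitotic genes tested, 45 rose and 0 fell from HSC to MPP (median 1.55). They included Ube2c, which helps the anaphase-promoting complex tag its targets (3.26 ± 0.60), and Cdc25c, a phosphatase that activates Cdk1 (2.95 ± 0.48). Of 47 DNA replication and G1-S genes, 12 rose and 0 fell (median 0.96), among them Rrm2, a subunit of ribonucleotide reductase (2.49 ± 0.47), and Pola1, a DNA polymerase subunit (2.33 ± 0.43).

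Between MPP and LMPP limma called 0 of the 41 genes in either direction, where 0.942% of all tested genes were called higher and 0.772% lower, and 1 of the 41 had an unadjusted p below 0.05. The differences were small and mostly of 1 sign: 40 of 41 were above 0, with a median of 0.39 (0.23 after repeated quantile normalization), where 56.2% of all tested genes were above 0. The LMPP arrays were both above the MPP arrays for 31 of 41 genes, against 25.8% of all tested genes. Ect2, the exchange factor that switches on RhoA for cytokinesis, differed most at 1.52 ± 0.54 (adjusted p = 0.282), with 6.02 and 6.52 in MPP and 7.62 and 7.95 in LMPP. Its arrays did not overlap. It was called in a fit on the MPP and LMPP arrays alone (adjusted p = 0.0313) and with array weights (adjusted p = 0.00661). Bub1 followed at 0.87 ± 0.62 (adjusted p = 0.859). After repeated quantile normalization 32 of 41 differences were above 0.

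At the step to lymphoid commitment the mitotic genes fell. From LMPP to CLP 39 of 41 genes were lower and 0 higher, where 19.2% of all tested genes were called lower and 6.96% higher. The median difference was -2.28, against -0.08 over all tested genes. Racgap1, the GTPase-activating subunit of centralspindlin, fell by 3.93 ± 0.43 (adjusted p = 4.99e-06), from 8.27 and 7.85 in LMPP to 3.50, 5.05 and 3.85 in CLP. Kif20a, which carries the passenger complex to the central spindle, fell by 3.24 ± 0.51, Cep55 fell by 3.10 ± 0.53, Ccnb2 fell by 3.00 ± 0.45 and Nuf2 fell by 2.97 ± 0.52. Ccna2 (-1.73, adjusted p = 0.0502) and Bub1b (-0.88 ± 0.37, adjusted p = 0.0853) were not called. CLP arrays lay below LMPP arrays for all 41 genes, against 28.8% of all tested genes. Chromosome structure genes differed least, with a median of -1.15 over the 4 genes, and Mki67 fell by 1.17 ± 0.40.

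Centring on housekeeping genes, which were themselves lower in CLP for 12 of 18 tested, moved the median of all tested genes to 1.00 in this comparison, and 22 mitotic genes were then called lower with a median of -1.21 and 3 of 41 differences above 0. With CLP array 2 as the single CLP array, the array with the smaller actin 3′ excess, 19 were called lower with a median of -1.77, and Nuf2 (-2.06, adjusted p = 0.0521) was not among them. The value of Racgap1 was -1.79 over the mean of its probe sets and that of Cep55 -1.68, both called. Cep55 was -2.02, Ccnb2 -1.92 and Nuf2 -1.89 after centring on housekeeping genes, and Cep55 was -1.89 with CLP array 2 alone, each still called. The part of RNA quality in the fall was not tested. Other mitotic genes went the same way with 46 of 71 lower and 0 higher, and replication genes with 22 of 47 lower and 1 higher.

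The myeloid branch differed from this in size. From LMPP to GMP 6 of 41 genes fell and 0 rose, where 13.0% of all tested genes were called lower and 16.0% higher, and the median was -0.47. Differences were above 0 for 8 of the 41, against 47.4% of all tested genes, and for 17 after centring on housekeeping genes, when the median was -0.18 and that of all tested genes 0.25. A share of 6 in 41 is near that background in the model over all arrays, whose error takes in groups outside this comparison. The root-mean-square SD of the 41 genes was 0.16 in GMP and 0.15 in LMPP, against 1.38 in HSC. The count moved with the fit, as given below. Kif23 fell by 1.65 ± 0.27 (3.14-fold, adjusted p = 0.000119), Kif20a by 1.52 ± 0.51, Plk1 by 1.26 ± 0.39, Spag5, a spindle protein also called astrin, by 1.10 ± 0.32 and Aurka by 0.97 ± 0.31. Foxm1 was the other gene called. The GMP arrays lay below the LMPP arrays for 28 genes, against 35.5% of all tested genes, and above them for 6, against 34.0%. Bub1 (1.06 ± 0.57, adjusted p = 0.178) and Ect2 (1.00 ± 0.49, adjusted p = 0.146) had the largest positive differences. Both were picked out after their values were seen. Their GMP arrays read 8.62, 8.42 and 8.24 for Bub1 and 8.87, 8.80 and 8.67 for Ect2, above both LMPP arrays of each (7.52 and 7.21, and 7.62 and 7.95). Kif23 was -1.08 and Aurka -0.55 over the mean of their probe sets, both called.

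These calls moved with the fit. A fit on the GMP and LMPP arrays alone called 23 lower and 5 higher, and array weights 22 and 5. Leaving out 1 array left 1 to 3 genes lower, with 1 left without either LMPP array and 2 without GMP array 3. Kif20a was not called with any 1 of the 5 arrays removed (adjusted p from 0.0596 to 0.145), and neither was Aurka (adjusted p from 0.0544 to 0.147). Plk1 and Spag5 lost theirs without either LMPP array or GMP array 3 (adjusted p from 0.0585 to 0.108). Plk1, Spag5 and Aurka were not called after centring on housekeeping genes (-0.97, -0.81 and -0.68). Replication genes had 18 of 47 higher and 2 lower in GMP, and other mitotic genes 9 of 71 higher and 16 lower. The actin 3′ excess was the largest of the series in GMP, and its part in these values was not tested.

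Between CLP and pro-B cells the difference had the opposite sign. All 41 genes were higher in pro-B cells than in CLP, where 21.1% of all tested genes were called higher, with a median of 2.93 against -0.02. The pro-B arrays did not overlap those of CLP for any of the 41, and lay higher for 24.3% of all tested genes. Kif11, the motor that pushes spindle poles apart, rose by 4.41 ± 0.44 (21.2-fold, adjusted p = 7.29e-07), with 9.19 and 9.68 in pro-B cells against 5.30, 5.30 and 4.47 in CLP. Racgap1 rose by 4.41 ± 0.43, Cenpa by 4.11 ± 0.39, Plk1 by 4.11 ± 0.39 and Nek2 by 4.06 ± 0.53. Smallest were Foxm1 (0.87 ± 0.25), Kif23 (1.23 ± 0.27) and Mki67 (1.43 ± 0.40). With CLP array 2 as the single CLP array 39 remained above the threshold, with a median of 2.60. After centring on housekeeping genes, which were themselves higher in pro-B cells for 10 of 18 tested, the median was 2.10. That of all tested genes was then -0.85. The actin 3′ excess was 2.07 and 3.11 in pro-B cells and 5.20, 3.26 and 5.27 in CLP. The part of RNA quality in this comparison was not tested. Over the mean of their probe sets Racgap1 was 2.76, Cenpa 1.41 and Nek2 1.87, all called. Other mitotic genes had 64 of 71 higher and 1 lower, and replication genes 32 of 47 higher and 0 lower. Plasma cell markers, 5 of 5 measured, summed to 3726 to 4848 in pro-B cells, 401 to 1247 in CLP and 1029 to 1190 in CD4 T cells. On the pro-B arrays Jchain read 11.39 and 11.68 and Irf4 8.54 and 8.93, while Prdm1 read 3.42 and 2.59, under the array median. The part of these markers in the results on pro-B cells was not tested.

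CD4 T cells stood at the other end. All 41 genes were lower than in pro-B cells, where 11.8% of all tested genes were called lower, with a median of -4.75 against 0.00. Ccna2 fell by 6.21 ± 0.69 (adjusted p = 9.11e-07), Kif2c, a motor that shortens microtubules, by 5.85 ± 0.42, Pbk, a mitotic kinase, by 5.55 ± 0.55, Hmmr by 5.39 ± 0.50 and Cenpf by 5.36 ± 0.36. Kif2c read 9.05 and 9.57 in pro-B cells and 3.90 and 3.02 in CD4 T cells, so that its CD4 T level lay around the array median. Foxm1 (-1.32 ± 0.28), Cenpa (-2.45 ± 0.42) and Kif23 (-2.93 ± 0.29) fell least. Over the mean of their probe sets Kif2c was -2.62, Hmmr -3.59 and Cenpf -2.67, all called. Other mitotic genes had 62 of 71 lower and 1 higher, and replication genes 44 of 47 lower and 0 higher.

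HSC and CD4 T cells, the lowest groups, were compared with each other. Of the 41 genes 12 were higher in HSC and 0 lower, where 16.7% of all tested genes were called higher and 14.0% lower, and the median difference was 0.81. Differences were above 0 for 37 of the 41, against 55.3% of all tested genes, and for 30 after repeated quantile normalization. The HSC arrays were both above the CD4 T arrays for 14 of the 41, against 34.6% of all tested genes. Pbk was higher by 2.33 ± 0.55 (adjusted p = 0.00293), Cdc20 by 1.85 ± 0.32, Kif2c by 1.79 ± 0.42, Top2a by 1.65 ± 0.41 and Spag5 by 1.57 ± 0.35. The HSC arrays disagreed on this comparison. On HSC array 1 the level was above the CD4 T mean for 18 of 41 genes, with a median of -0.20, and on HSC array 2 for 40 of 41, with a median of 1.67. Without HSC array 1 limma called 29 genes higher and 0 lower, and without HSC array 2 it called 3 higher and 3 lower. Pbk (1.24), Kif2c (0.84) and Top2a (0.78) were not called without HSC array 2, nor was Kif2c without CD4 T array 2 (1.35) or Spag5 without CD4 T array 1 (1.06). Without HSC array 1 Kif2c was 2.74 and Top2a 2.53. Top2a was 0.27 over the mean of its probe sets (adjusted p = 0.428), where Kif2c was 0.67 and Spag5 0.87. In a fit on the HSC and CD4 T arrays alone 7 genes were called, and 7 without CD4 T array 2. Cdc20 was called in each of these settings.

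Mature NK cells carried these messages at high level. Of the 41 genes 38 were higher with Ets1 present than in CD4 T cells and 0 lower, where 14.3% of all tested genes were called higher and 10.2% lower, with a median of 3.87 against 0.02. The NK arrays lay above the CD4 T arrays for each of the 41, against 36.4% of all tested genes. Cep55 was higher by 5.40 ± 0.58 (adjusted p = 8.4e-07), Kif2c by 5.02 ± 0.42, Ect2 by 4.97 ± 0.54, Hmmr by 4.86 ± 0.50 and Aurkb by 4.84 ± 0.51. Cep55 read 9.35 and 9.18 in the NK cells and 4.75 and 2.98 in CD4 T cells. Kif23 (0.36 ± 0.29, adjusted p = 0.431), Foxm1 (0.58 ± 0.28, adjusted p = 0.143) and Cenpa (1.17 ± 0.42, adjusted p = 0.0506) were not called. Over the mean of their probe sets Cep55 was 2.97, Kif2c 1.89 and Hmmr 2.41, all called. Other mitotic genes had 58 of 71 higher and 0 lower, and replication genes 35 of 47 higher and 0 lower. Neutrophil and GMP markers, given above, were also present on these NK arrays, and their part in the result was not tested.

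The NK genotypes were compared last. Between Ets1-deficient NK cells and NK cells with Ets1 present limma called 0 of the 41 genes, and 0 had an unadjusted p below 0.05, where 1.59% of all tested genes were called higher, 2.23% lower and 12.9% had an unadjusted p below 0.05. The differences ran from -0.65 to 0.57 with a median of -0.01, and 20 were above 0 and 21 below, or 14 and 27 after centring on housekeeping genes. Both Ets1-deficient arrays lay above the others for 8 genes, against 28.4% of all tested genes, and below them for 7, against 27.0%. Those furthest from 0 were Aurka (-0.65 ± 0.34, adjusted p = 0.461) and Kif20a (-0.58 ± 0.56, adjusted p = 0.838). When the model was restricted to the 4 NK arrays, 1 gene was called. This was Cep55, which was higher in Ets1-deficient NK cells by 0.57 ± 0.13 (adjusted p = 0.0448) and had an SE of 0.58 in the model over all arrays. Aurka read 7.87 and 7.75 with Ets1 present and 7.45 and 6.87 without. The intervals were wide, and the error behind them is pooled over all groups. Over the 41 genes the root-mean-square SD was 0.10 with Ets1 present, 0.34 in Ets1-deficient NK cells and 1.38 in HSC. Over all tested genes it was 0.19, 0.31 and 0.46 in the same groups. The shares of the 41 genes and of all tested genes that passed a threshold are therefore not like for like. The 95% interval of Mki67 ran from -0.90 to 0.94 around a difference of 0.02, that of Cdk1 from -0.58 to 1.36 and that of Aurka from -1.35 to 0.06. For 11 of the 41 genes the interval lay within 1 log2 unit of 0, and for 30 it reached past that. Neutrophil and GMP markers, given above, were lower in Ets1-deficient NK cells, and their part in this comparison was not tested.

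Of 71 other mitotic genes limma called 1 higher in Ets1-deficient NK cells, a share near the 1.59% of all tested genes called higher. This was Kif18a, a motor that limits chromosome oscillation, at 1.10 ± 0.28 (adjusted p = 0.0294). None of the 47 replication genes was called by limma (0, with 9 at an unadjusted p below 0.05). Their differences were above 0 for 42 of 47, where 51.4% of all tested genes were above 0, with a median of 0.30. Both Ets1-deficient arrays lay above both others for 33 of 47, against 28.4% of all tested genes. The part of the neutrophil and GMP markers in these values was not tested either.

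**Figure D5:**
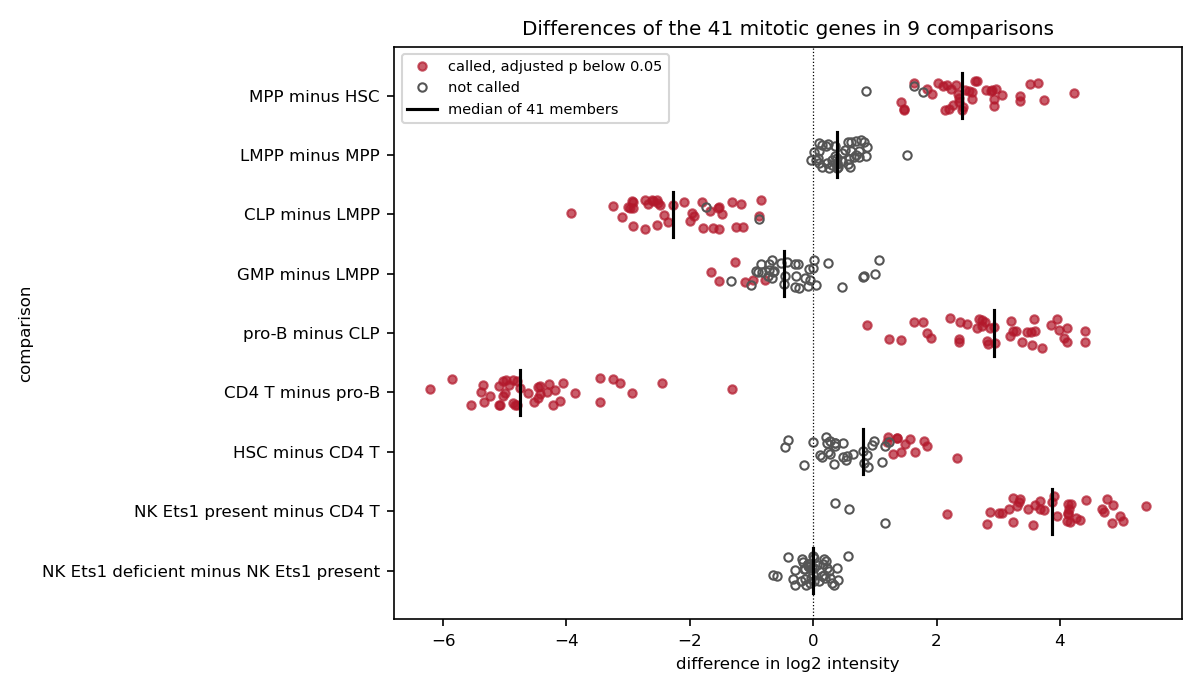
Differences in log2 intensity (horizontal axis) of the 41 genes in the 9 comparisons (vertical axis), with a point for each gene, filled where called by limma at an adjusted p below 0.05, and a bar at the median. The points lie right of 0 for MPP against HSC and pro-B cells against CLP, left of 0 for CLP against LMPP and CD4 T cells against pro-B cells, and around 0 between the NK genotypes.

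Other probe sets of the same genes were read as a check on the choice of probe set. The 41 genes had 91 probe sets in all, 13 genes having 1, and 42 of the other probe sets passed the filter on dim signal. Among genes called in a comparison, these other probe sets went the same way for 37 of 39 from HSC to MPP, 32 of 39 from LMPP to CLP, 5 of 5 from LMPP to GMP and 35 of 42 from CLP to pro-B cells. They did so for 42 of 42 from pro-B to CD4 T cells, 13 of 15 between HSC and CD4 T cells and 34 of 37 between NK and CD4 T cells. Their differences were smaller, with medians of 1.13, -1.17, -0.99, 2.03, -2.48, 0.30 and 1.63 in that order. Foxm1, whose level moved least, had 2 further probe sets, both of them lowest in CD4 T cells (5.23 and 3.08). The first of these reached 6.71 in MPP. The second read 5.34 in pro-B cells, 4.92 in NK cells with Ets1 present and 4.72 in Ets1-deficient NK cells. The range of 1.32 log2 units given for Foxm1 is that of the probe set used. Group means ran from 5.23 to 6.71 on the first further probe set and from 3.08 to 5.34 on the second.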

How the data were processed

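The values deposited by the authors are linear intensities, 1 for each of 45101 probe sets on each array. Per the submitters' processing notes they were made with RMA, a method that removes background, equalises the arrays and combines the probes of a set. No version of it is named in the sources used here. The design had assumed log2 values, so log2 was taken first. Of the probe sets 34958 had 1 gene symbol in the platform table and 34754 of these matched a RefSeq gene table of GRCm38.p6 by Entrez ID, while probe sets with several symbols (932) or none here (9211) were not used. Genes under the array median on all but 1 or all of the arrays (4715) were not tested.

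Contrasts were fitted in R 4.3.3 by limma 3.58.1 (lmFit, eBayes with an intensity trend) with 20 arrays, 9 group means and residual df of 11, and p-values were adjusted by Benjamini-Hochberg over 13479 genes. The method was run on simulated data for the NK genotype comparison alone, with the same error in all groups for a given gene. That simulation does not cover groups of unequal spread, such as HSC here. The 2 or 3 arrays per group limit the precision.

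The 41 genes, the lists and the tests were chosen with earlier results of these data known. All 41 genes may be named for their levels. Per comparison the rule names the 5 called genes of largest change in each direction, or the 2 largest differences where none is called, and other genes are named to give exceptions. Of the other lists it names the 2 called genes of largest change in each direction from HSC to MPP, and Kif18a was chosen after its value was seen. Levels per array are given for 9 preset genes and the gene least like the rest. Of 75 other mitotic, 50 replication, 20 inhibitor and 22 housekeeping genes listed, some are not analysed here.

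Alternatives were no or a stricter filter on dim genes (above the median on 10 arrays), averaging all probe sets of each gene, eBayes without trend, a further round of quantile normalization, housekeeping-gene centring, fits restricted to both compared groups, weights for arrays, the replicate number as a block, CLP array 2 alone, and leaving out each array.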

Additional observations from a re-analysis of the deposited data

How the results depend on the processing

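Counts of called mitotic genes kept to within 1.5 times in every setting for pro-B cells against CLP, CD4 T cells against pro-B cells and NK cells with Ets1 present against CD4 T cells, and no value changed sign among the named genes. For MPP against HSC the genes called higher numbered 7 in a fit on the compared groups alone and 22 to 40 with 1 array left out. For LMPP against MPP 1 gene was called higher on the compared groups alone and 1 with array weights. For CLP against LMPP those lower were 22 after centring on housekeeping genes and 19 with CLP array 2 alone. For GMP against LMPP those higher were 4 after centring on housekeeping genes, 5 on the compared groups alone, 1 with the replicate block and 5 with array weights. Those lower were 10 with the mean of probe sets, 2 after centring on housekeeping genes, 11 after repeated quantile normalization, 23 on the compared groups alone, 22 with array weights and 1 to 3 with 1 array left out. For HSC against CD4 T cells those higher were 7 on the compared groups alone and 3 to 29 with 1 array left out, and those lower 0 to 3. Between the NK genotypes 1 gene (Cep55) was called higher on the NK arrays alone. The cause of these changes was not tested.

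Same-numbered samples of different groups correlated in their deviations at -0.233 to 0.396 over 73 pairs, 11 of them above 0.1, so the numbers were not taken to pair the samples. Where both groups have 2 arrays, both pairs give the same value by construction, so the 73 are not independent. Among HSC, MPP and CLP the values ran from 0.158 to 0.396. The cause of those correlations was not tested. With the replicate block the genes called were 39 for MPP against HSC, 36 for CLP against LMPP, 5 lower and 1 higher for GMP against LMPP, and 13 for HSC against CD4 T cells. Kif20a was then not called from LMPP to GMP (-1.41, adjusted p = 0.0519). Signal close to the array median limits the size of differences in CD4 T cells and HSC, and that of Racgap1 in CLP.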

Other observations

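Genes that hold the cell cycle back were read from a list of 20 inhibitors and quiescence genes. From HSC to MPP 1 of the 20 rose and 2 fell, where 1.94% of all tested genes rose and 3.99% fell. Cdkn1c, which encodes the CDK inhibitor p57 known from resting stem cells, fell by 3.19 ± 0.25 (adjusted p = 6.21e-07 by limma), and Foxo1, a transcription factor of resting and stressed cells, fell by 1.27 ± 0.32 (adjusted p = 0.0226). Cdkn2c, an inhibitor of CDK4 and CDK6 that dividing cells also express, rose by 2.50 ± 0.33 (adjusted p = 0.000125). From LMPP to CLP 7 of the 20 fell and 1 rose, against 19.2% and 6.96% of all tested genes. From LMPP to GMP 7 fell and 2 rose, against 13.0% and 16.0%. From CLP to pro-B cells 5 rose and 1 fell, against 21.1% and 14.0%, and the share that rose is near that background. In CD4 T cells 10 of the 20 were higher than in pro-B cells and 2 lower, against 17.0% and 11.8%, with a median difference of 0.86. In HSC 3 of the 20 were higher than in CD4 T cells and 8 lower, against 16.7% and 14.0%, with a median of -0.84. In NK cells with Ets1 present 3 were higher than in CD4 T cells and 2 lower, near the 14.3% and 10.2% of all tested genes. Of the 20, limma called 0 between both NK groups, with 5 at an unadjusted p below 0.05, where 12.9% of all tested genes had one.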
